A study of Homo sapiens with 16 samples.

Results

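NF-κB is a family of transcription factors that are built as pairs of subunits, and 10 of its genes were followed here through treatment of a colorectal cancer cell line with 5-fluorouracil: the 5 subunit genes NFKB1, NFKB2, RELA, RELB and REL, the 3 classical inhibitor genes NFKBIA, NFKBIB and NFKBIE, and the genes of the nuclear IκB proteins NFKBIZ and BCL3. The genes were taken by name from a table of 58735 genes, and each name matched a single row. All 10 passed the filter on low counts, as did 17309 genes in all. The cells were SW620, a human colorectal cancer line, and messenger RNA was sequenced in 16 libraries in 6 groups. The scramble line carried a non-targeting short hairpin RNA and the shATF4 line carried a hairpin against ATF4, a transcription factor of the integrated stress response. Each line was sequenced untreated (3 libraries), after 24 h of treatment (3 libraries) and after 48 h (2 libraries). The drug, 5-FU for short, is a fluorinated uracil given against bowel cancer, and its dose was 5 µM at both times. No time in culture is given for the untreated cells, so drug and time in culture cannot be told apart.

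At rest, NF-κB dimers are held in the cytoplasm by the IκB proteins that NFKBIA, NFKBIB and NFKBIE encode. In the canonical pathway a kinase complex phosphorylates the IκB proteins, which are then degraded, and dimers such as RELA with p50, the product of NFKB1, enter the nucleus. In the noncanonical pathway the precursor protein of NFKB2 is processed to p52, which acts mainly with RELB. Several of these genes are themselves textbook targets of NF-κB, NFKBIA above all, so that the pathway writes part of its own brake. BCL3 and NFKBIZ encode atypical IκB proteins that work in the nucleus with p50 and p52 and can activate as well as repress transcription.

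The decamer that NF-κB binds, the κB consensus motif, was looked for on both strands of the RefSeq promoter windows (GRCh38.p14), which run from 250 bases before to 50 bases after each annotated transcript start. Of the 10 genes, 8 were in the table of windows, all but RELB and NFKBIE. A match lay in at least 1 window of 7 of these 8, all but RELA, and in 9 of their 14 windows. Over the whole table, 5.91% of 35116 windows and 7.09% of 27305 genes held a match. The stretches below show matches of the genes whose levels are described next. Each is 30 bases long, is written 5′ to 3′ on the gene's own strand, and has the bases covered by a match on either strand in capitals.
NFKB2 (chr10:102394462-102394491, plus strand): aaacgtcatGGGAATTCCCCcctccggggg
NFKB2 (chr10:102395674-102395703, plus strand): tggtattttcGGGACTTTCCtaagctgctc
NFKBIA (chr14:35404811-35404840, minus strand): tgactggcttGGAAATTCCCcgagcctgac
NFKBIZ (chr3:101827757-101827786, plus strand): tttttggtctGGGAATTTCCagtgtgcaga
BCL3 (chr19:44748700-44748729, plus strand): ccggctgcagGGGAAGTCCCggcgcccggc
NFKBIB (chr19:38899932-38899961, plus strand): ggcgtggtgGGGAATTTCCCgcagggcgga
NFKB1 (chr4:102501300-102501329, plus strand): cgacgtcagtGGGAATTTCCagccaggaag
REL (chr2:60881518-60881547, plus strand): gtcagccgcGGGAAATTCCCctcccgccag
NFKB2 held 4 places with a match, the pair shown and 2 more, and NFKBIZ held another, GGGGTTTCCC, in its other window. In the stretches shown, NFKB1 and NFKBIZ shared the same 10 letters, GGGAATTTCC, and that of NFKBIA held their reverse complement. A match is a run of letters in a window and shows no binding.

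Total counts were 14571611 to 17824188 per library, and the 10 genes had between 51 counts (NFKBIZ, the lowest value in any library) and 2407 counts (RELA, the highest). The knockdown was seen in ATF4 itself, which averaged 378.3, 278.5 and 332 CPM (counts scaled to a common library size, with TMM factors) in scramble cells untreated, at 24 h and at 48 h, and 173, 110 and 116.1 CPM in shATF4 cells. In edgeR's quasi-likelihood test the log2 differences were -1.13, -1.34 and -1.52, with Benjamini-Hochberg adjusted p of 6.42e-08, 2.7e-09 and 1.62e-08. Among the libraries, 2 lay away from the rest of their groups. Scramble untreated replicate 2 had 1.42% of its counts in mitochondrial coding genes against 0.753% and 0.766% in the other replicates. shATF4 24 h replicate 3 had 0.0726% of its counts in the RN7SL RNA family against 0.0241% and 0.0251%. Counts for 8 colon epithelial markers summed to 11100 to 12500 CPM in untreated scramble cells, 8870 to 9440 CPM at 24 h and 7310 to 7490 CPM at 48 h, and in shATF4 cells to 11200 to 11700, 10100 to 10800 and 6500 to 6960 CPM, with none of the 8 at 0. LGALS4 did not pass the filter on low counts. Of the 7 tested, 2 were called higher and 5 lower at 48 h in each line. Over all genes these shares were 30.6% and 30% in scramble and 29.6% and 28.7% in shATF4 cells. The summed leukocyte markers, 6 genes, were at 0.439 to 1.52 CPM in untreated cells of both lines and 1.06 to 4.52 CPM under 5-FU. PTPRC, the pan-leukocyte marker, was at 0 in 3 of the 6 groups. The 5 fibroblast markers summed to 35.4 to 44.4 CPM in untreated cells of both lines and 53.7 to 63.9 CPM under 5-FU, with COL3A1 at 0 in every group, and the 4 endothelial markers to 3.67 to 5.12 CPM and 6.75 to 13.8 CPM, with KDR at 0 in 4 of the 6 groups. The part of these shifts in the results below was not tested. In bulk RNA, fewer cells of a kind and less RNA per cell cannot be told apart.

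Per unit of gene length, the 10 genes differed widely in untreated scramble cells. On the scale of RPKM (the CPM divided by the deposited gene length in kilobases), NFKBIB stood highest at 27.2 ± 2.47 (SD, n = 3), followed by RELA at 21.5 ± 1.51, NFKBIA at 11.7 ± 0.309 and NFKB1 at 9.23 ± 0.593. NFKBIE (5.08 ± 0.366) and NFKB2 (4.99 ± 0.597) did not differ beyond their spread. RELB followed at 2.24 ± 0.162, and BCL3, REL and NFKBIZ were lowest, at 1.38 ± 0.23, 1.03 ± 0.082 and 0.788 ± 0.0632. In shATF4 cells after 48 h of 5-FU, NFKB2 (21.7 ± 1.21, n = 2) stood beside RELA (21.7 ± 0.688), while REL (0.738 ± 0.129) was lowest. REL values need care, because 43.3% of its exon bases overlap the annotated transcript AC010733.2 on the same strand, which was listed at 0 counts in all libraries. The sources used here do not give how reads in such an overlap were counted.

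**Figure D1:**
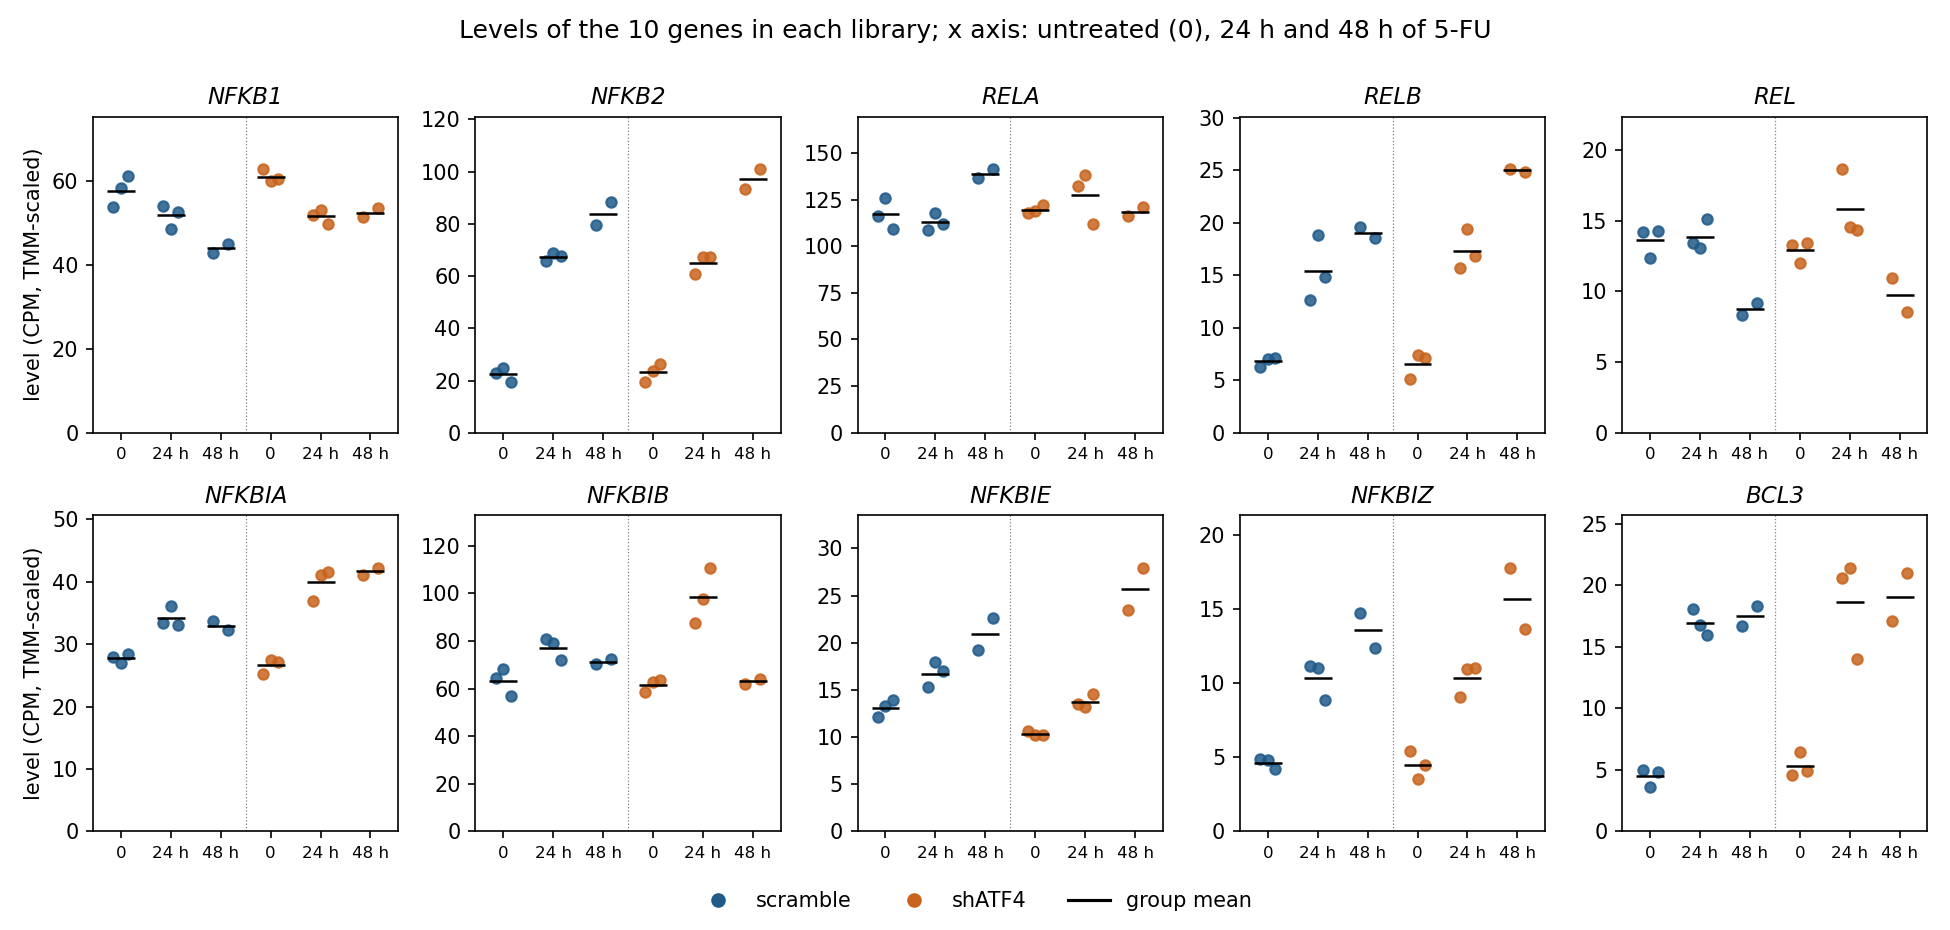
Level of each of the 10 genes in every library, in CPM on a linear axis from 0 that differs between panels, with 1 panel per gene and 1 point per library; the 6 groups run along the horizontal axis and short lines mark the group means. NFKB2, RELB, BCL3 and NFKBIZ lie higher in all 5-FU libraries than in all untreated libraries of the same line, while RELA lies between 108.8 and 141.3 CPM.

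The subunits of the noncanonical pathway rose under 5-FU in both lines, while NFKB1 and REL did not. NFKB2 was at 23.0, 24.7 and 19.4 CPM in the untreated scramble libraries, at 65.8, 68.8 and 67.8 CPM after 24 h, and at 79.6 and 88.3 CPM after 48 h. The shATF4 libraries had 19.5, 23.7 and 26.3 CPM untreated, 60.8, 67.5 and 67.4 CPM at 24 h, and 93.3 and 100.9 CPM at 48 h. Every treated library was above every untreated one, and every 48 h library above every 24 h one, in both lines. The rise was 3.02-fold and 3.75-fold in scramble cells (log2 1.59 ± 0.10 SE, adjusted p = 1.14e-10, and 1.91 ± 0.11, adjusted p = 5.17e-12, edgeR's quasi-likelihood test, with p adjusted by Benjamini-Hochberg over all genes tested, here and below). For shATF4 cells it was 2.82-fold and 4.2-fold (log2 1.49 ± 0.10, adjusted p = 3.64e-10, and 2.07 ± 0.11, adjusted p = 2.22e-12). Both times in a line were set against the same untreated libraries.

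RELB, which pairs with the NFKB2 product p52, moved the same way from a lower level. Its untreated values were 6.22, 7.04 and 7.1 CPM in scramble cells and 5.12, 7.4 and 7.09 CPM in shATF4 cells. After 24 h they were 12.6, 18.8 and 14.8 CPM in scramble cells and 15.7, 19.4 and 16.8 CPM in shATF4 cells, and after 48 h 19.6 and 18.6 CPM against 25.1 and 24.9 CPM. No treated library overlapped the untreated ones. The folds were 2.26 and 2.8 in scramble cells (adjusted p = 2.4e-06 and 9.24e-08) and 2.64 and 3.82 in shATF4 cells (adjusted p = 2.6e-07 and 1.94e-09).

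The 3 other subunit genes changed little or fell. RELA, the main transactivating subunit of canonical dimers, ranged from 108.8 to 141.3 CPM over all 16 libraries. It was called higher in 1 of the 4 comparisons with untreated cells, scramble at 48 h (log2 0.24 ± 0.08, adjusted p = 0.0171). That call was lost without scramble untreated replicate 3, scramble 48 h replicate 1 or scramble 48 h replicate 2, with adjusted p of 0.0695, 0.0687 and 0.142. NFKB1, which encodes p105 and p50, lay between 53.8 and 61.2 CPM in untreated scramble cells and was at 43.0 and 45.0 CPM at 48 h (log2 -0.39 ± 0.08, adjusted p = 0.000293). The shATF4 line had lower NFKB1 at 24 h (log2 -0.24 ± 0.07, adjusted p = 0.00887) and at 48 h (log2 -0.22 ± 0.08, adjusted p = 0.024). The latter call was lost without shATF4 untreated replicate 1, or either 48 h library of that line, at adjusted p of 0.0503 to 0.127. REL, the gene of c-Rel, a subunit best known from lymphocytes, was at 14.2, 12.4 and 14.3 CPM in untreated scramble cells and at 8.35 and 9.16 CPM at 48 h (log2 -0.63 ± 0.15, adjusted p = 0.000901). Its level in shATF4 cells fell at 48 h (log2 -0.41 ± 0.15, adjusted p = 0.0199), a call that was lost without shATF4 untreated replicate 1 or 3 or 48 h replicate 2, at adjusted p of 0.0507 to 0.247. REL at 24 h was not called in either line (log2 0.03 and 0.30). Without shATF4 24 h replicate 3 both REL (0.36, adjusted p = 0.0302) and RELA (0.18, adjusted p = 0.0352) were called higher at 24 h in shATF4 cells. Without scramble untreated replicate 1 NFKB1 was called lower at 24 h in scramble cells (-0.20, adjusted p = 0.049).

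The falls of NFKB1 and REL depend on the scale. With library totals in place of TMM factors, the median of all genes tested moved to 0.38 in scramble and 0.35 in shATF4 cells at 48 h. On that scale NFKB1 was at -0.03 (adjusted p = 0.736) in scramble cells and turned to 0.10 (adjusted p = 0.295) in shATF4 cells, and REL in scramble cells was at -0.28 (adjusted p = 0.118). Relative to the median gene, both stayed low. RELA in shATF4 cells at 48 h was at -0.01 with TMM factors and was called higher, at 0.31 (adjusted p = 0.00531), with library totals.

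These shifts changed the make-up of the summed subunit RNA. Over the 5 subunit genes the RPKM values summed to 37.6 to 41.1 in untreated scramble libraries, 48.4 to 51.9 at 24 h and 56.7 to 59.6 at 48 h, and in shATF4 libraries to 38.7 to 41.2, 50.1 to 56.3 and 59.3 to 62.1. The share of NFKB2 in that sum averaged 12.8%, then 30%, then 32.2% in scramble cells, and 12.9%, 27.5% and 35.6% in shATF4 cells. RELB went from 5.74% to 10.1% and 10.8%, and in shATF4 cells from 5.37% to 10.7% and 13.6%. RELA, the largest share in untreated cells of both lines, went from 55.1% to 41.2% and 43.7%, and in shATF4 cells from 54.8% to 43.9% and 35.8%. NFKB1 went from 23.7% to 16.6% and 12.1%, against 24.5%, 15.6% and 13.8%. The share of REL was 2.66% and 2.46% untreated and 1.14% and 1.22% at 48 h. A share falls when another gene rises, and these are shares of RNA, not of protein.

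**Figure D2:**
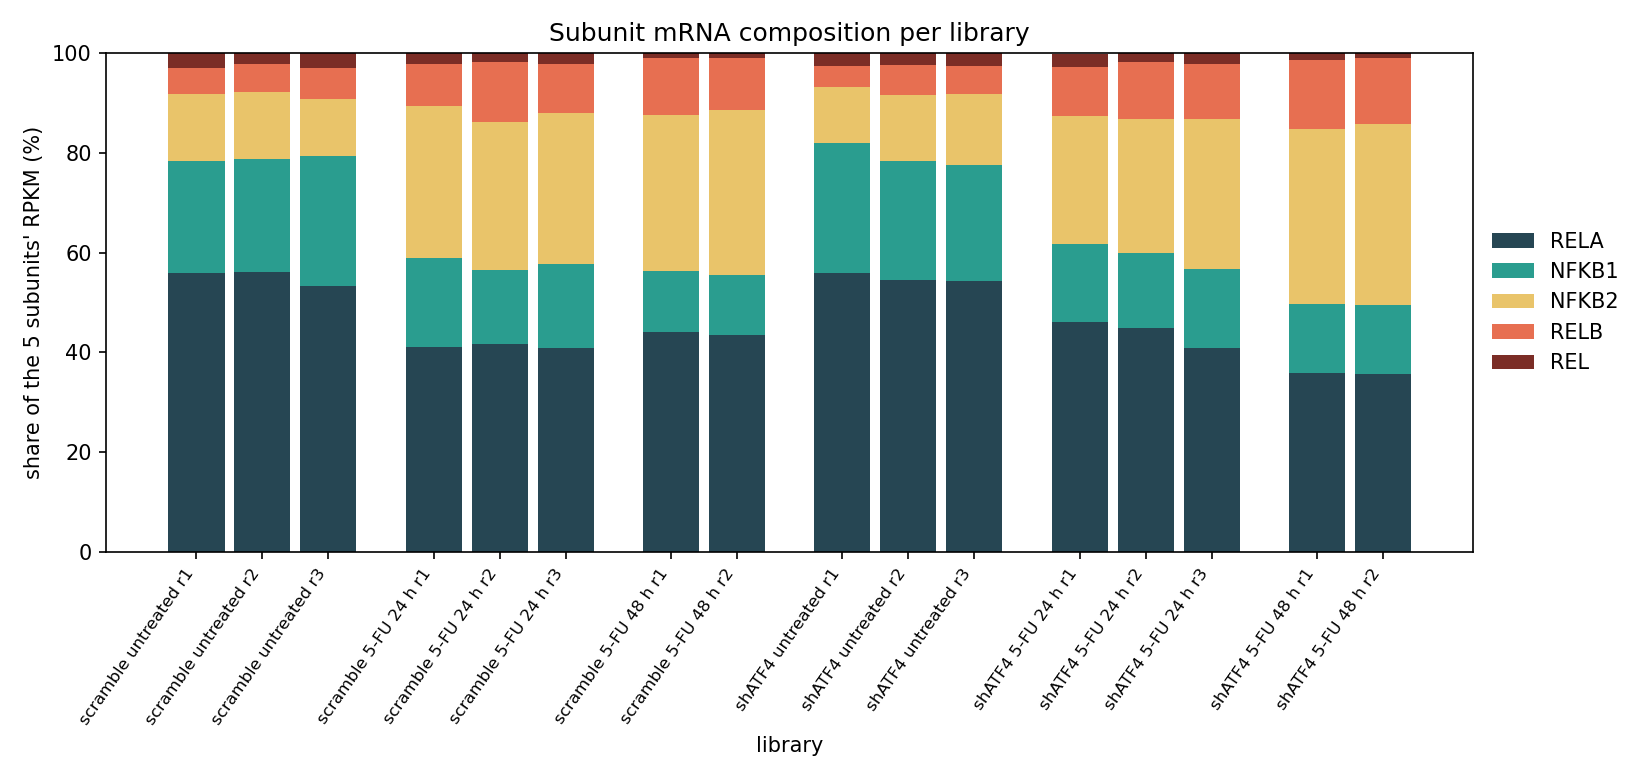
Share of each of the 5 subunit genes in their summed RPKM, in percent, as stacked bars from 0 to 100 with 1 bar per library, ordered by group. The band of NFKB2 averages 12.8% in untreated scramble cells and 32.2% at 48 h, and the band of RELA narrows from 55.1% to 43.7%.

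The atypical IκB genes rose with NFKB2 and RELB. BCL3, whose protein binds p50 and p52 homodimers, was at 4.98, 3.61 and 4.82 CPM in untreated scramble cells, at 18.1, 16.8 and 15.99 CPM after 24 h and at 16.7 and 18.3 CPM after 48 h. The shATF4 libraries went from 4.58, 6.43 and 4.94 CPM to 20.6, 21.4 and 14.0 CPM and then to 17.1 and 21.0 CPM. The level at 48 h lay within or near the range at 24 h, and log2 differences between the times were 0.05 in scramble and 0.04 in shATF4 cells. Against untreated cells BCL3 was 3.8-fold and 3.93-fold higher in scramble cells (adjusted p = 2.04e-08 and 1.21e-08) and 3.5-fold and 3.59-fold higher in shATF4 cells (adjusted p = 3.81e-08 and 2.65e-08).

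NFKBIZ encodes IκBζ, a nuclear coactivator that is itself induced by NF-κB. It was at 4.9, 4.82 and 4.22 CPM in untreated scramble cells, 11.2, 11 and 8.88 CPM at 24 h and 14.8 and 12.4 CPM at 48 h. The shATF4 values were 5.4, 3.53 and 4.51 CPM, then 9.05, 10.99 and 11.01 CPM, then 17.8 and 13.7 CPM. Treated and untreated libraries did not overlap in either line. The rise was 2.22-fold and 2.92-fold in scramble cells (adjusted p = 9.39e-06 and 1.71e-07) and 2.31-fold and 3.51-fold in shATF4 cells (adjusted p = 6.44e-06 and 1.89e-08).

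Counted over the 10 genes, 7 were called higher and 0 lower at 24 h in scramble cells, where 21.8% of all genes tested rose and 22.2% fell. For 48 h the counts in that line were 7 and 2, against 30.6% and 30% of all genes. In shATF4 cells 7 rose and 1 fell at 24 h, against 23.2% and 21.2%, and 6 rose and 2 fell at 48 h, against 29.6% and 28.7%. Treated and untreated libraries did not overlap, with the treated ones higher, for 7 and 8 of the 10 genes in scramble cells at 24 h and 48 h (25.8% and 37.5% of all genes) and for 8 and 6 in shATF4 cells (25.8% and 37.6%). The treated ones were lower for 0 and 2 in scramble cells (27.1% and 35.7%) and 1 and 2 in shATF4 cells (24.3% and 35.4%). The median log2 change of the 10 genes was 0.32 and 0.46 in scramble cells and 0.63 and 0.98 in shATF4 cells, where the median over all genes tested was -0.01 and 0.03, and 0.03 and 0.03. The authors' deposited table gave the same call as the fit here for 10, 9, 9 and 8 of the 10 genes in these comparisons, in the order scramble 24 h, scramble 48 h, shATF4 24 h and shATF4 48 h.

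**Figure D3:**
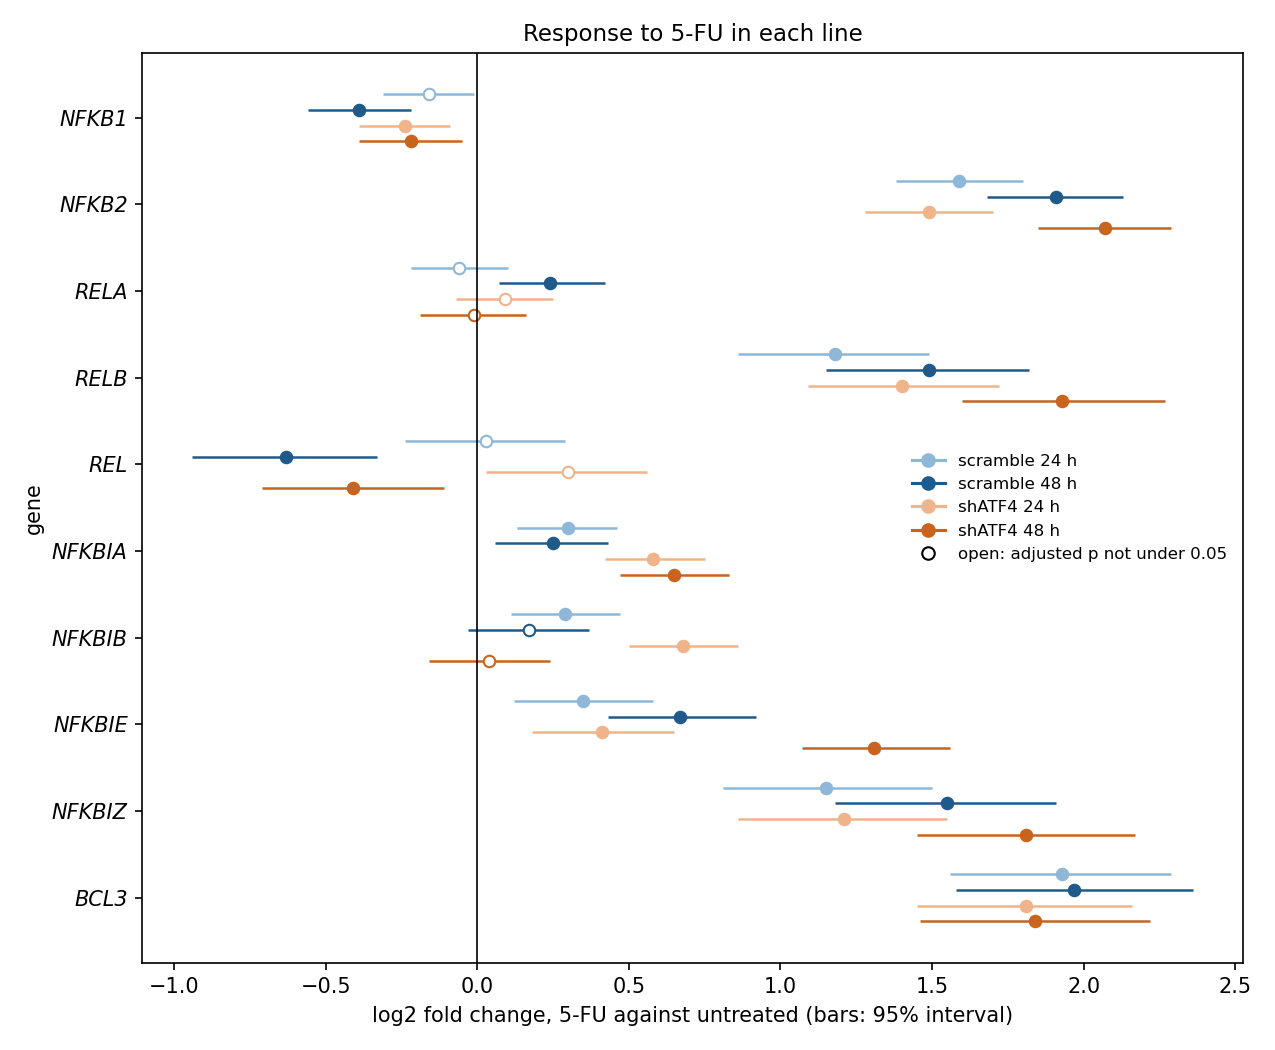
Log2 change against untreated cells of the same line for each of the 10 genes, with 95% intervals from edgeR's fit; scramble and shATF4 cells, at 24 h and 48 h, have separate colours, and a line marks 0. NFKB2, RELB, BCL3 and NFKBIZ lie between 1.15 and 2.07 throughout, while NFKB1 lies below 0 in all 4 with TMM factors, but not with library totals at 24 h in scramble or at 48 h in shATF4 cells. Filled points have an adjusted p under 0.05.

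The classical inhibitors rose less than the atypical ones, and each behaved differently. NFKBIA, the gene of IκBα, was at 27.9, 27.0 and 28.5 CPM in untreated scramble cells, 33.4, 36.1 and 33.0 CPM at 24 h and 33.7 and 32.2 CPM at 48 h. Those of shATF4 cells were at 25.2, 27.4 and 27.2 CPM, then 36.9, 41.1 and 41.5 CPM, then 41.1 and 42.2 CPM. All treated libraries were above all untreated ones in each line, and at 24 h and 48 h every shATF4 library was above every scramble library of the same time. The log2 change was 0.30 ± 0.08 and 0.25 ± 0.09 in scramble cells (adjusted p = 0.00443 and 0.0205), and 0.58 ± 0.08 and 0.65 ± 0.09 in shATF4 cells (adjusted p = 4.86e-06 and 1.84e-06). The scramble call at 48 h was lost without either 48 h scramble library (adjusted p = 0.17 without replicate 1 and 0.0624 without replicate 2).

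NFKBIB, the gene of IκBβ, was called higher at 24 h and in neither line at 48 h. Its values were 64.5, 68.1 and 56.9 CPM in untreated scramble cells, 80.6, 78.9 and 71.9 CPM at 24 h and 70.1 and 72.3 CPM at 48 h, and in shATF4 cells 58.3, 62.7 and 63.6 CPM, 87.4, 97.5 and 110.6 CPM, and 62.0 and 64.2 CPM. The change at 24 h was 0.29 ± 0.09 on the log2 scale in scramble cells (adjusted p = 0.00982, and 0.0636 without scramble untreated replicate 3) and 0.68 ± 0.09 in shATF4 cells (adjusted p = 2.09e-06). At 48 h neither line passed the test (log2 0.17, adjusted p = 0.127, and 0.04, adjusted p = 0.764). The drop from 24 h to 48 h in shATF4 cells was -0.64 ± 0.10 (adjusted p = 1.59e-05). Its exons share 1.72% of their bases with SIRT2 on the opposite strand, and no strand-marking step is described for these libraries.

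NFKBIE, the gene of IκBε, rose at both times in both lines. It was at 12.1, 13.3 and 13.9 CPM in untreated scramble cells, 15.3, 17.9 and 17.0 CPM at 24 h and 19.2 and 22.7 CPM at 48 h. In shATF4 cells it started lower, at 10.6, 10.2 and 10.2 CPM, reached 13.5, 13.2 and 14.6 CPM at 24 h, and then 23.4 and 27.9 CPM at 48 h, above both scramble libraries. The difference between the lines was called neither untreated (log2 -0.34, adjusted p = 0.134) nor at 48 h (0.29, adjusted p = 0.149). Against untreated cells the log2 change was 0.35 ± 0.11 and 0.67 ± 0.12 in scramble cells (adjusted p = 0.0128 and 4.72e-05) and 0.41 ± 0.11 and 1.31 ± 0.12 in shATF4 cells (adjusted p = 0.00569 and 7.48e-09). The scramble call at 24 h was lost without scramble untreated replicate 1 (adjusted p = 0.063) or scramble 24 h replicate 2 (adjusted p = 0.0541).

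Summed per length, the 3 classical inhibitors did not gain on the subunits by 48 h. NFKBIB weighs most in that sum and was not called at 48 h in either line, whereas NFKBIA and NFKBIE were called higher in both. The sum therefore does not stand for each inhibitor gene. The RPKM sum of the 3 inhibitors divided by that of the 5 subunits was 1.11 to 1.16 in untreated scramble libraries, 1.03 to 1.13 at 24 h and 0.897 to 0.914 at 48 h. In shATF4 libraries it was 1.03 to 1.06, then 1.11 to 1.41, then 0.895 to 0.905. The upper end at 24 h is shATF4 24 h replicate 3 alone, one of the libraries that stood apart. The other 24 h libraries of that line were at 1.11 and 1.14.

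From 24 h to 48 h calls were made in both directions. Of the 10, 3 rose and 2 fell in scramble cells, against 18.8% and 19.5% of all genes tested, and in shATF4 cells 4 rose and 2 fell, against 23.7% and 24.5%, and nothing about the 10 as a group is read from these counts. In shATF4 cells NFKB2 (log2 0.57, adjusted p = 9.82e-05), RELB (0.53, adjusted p = 0.00494), NFKBIZ (0.60, adjusted p = 0.00369) and NFKBIE (0.90, adjusted p = 2.18e-06) rose, while NFKBIB and REL (-0.71, adjusted p = 0.000385) fell. The NFKBIZ call was lost without shATF4 48 h replicate 1 (adjusted p = 0.107). In scramble cells NFKB2 (0.32, adjusted p = 0.0193), RELA (0.30, adjusted p = 0.00771) and NFKBIE (0.32, adjusted p = 0.0313) rose, and NFKB1 (-0.24, adjusted p = 0.0257) and REL (-0.66, adjusted p = 0.00126) fell. Leaving out scramble 48 h replicate 2 ended all of these scramble calls but that of REL, with adjusted p of 0.243 for NFKB2, 0.106 for RELA, 0.403 for NFKBIE and 0.0633 for NFKB1. Scramble 48 h replicate 1 ended those of RELA (0.0523) and NFKB1 (0.141). Scramble 24 h replicates 1 and 3 ended those of NFKB2 (0.069 and 0.0515), NFKBIE (0.142 and 0.0679) and NFKB1 (0.0769 and 0.0598). Leaving out scramble 24 h replicate 2 added RELB in scramble cells (0.46, adjusted p = 0.0221), and leaving out shATF4 24 h replicate 3 added NFKBIZ in scramble (0.39, adjusted p = 0.044) and RELA in shATF4 cells (-0.19, adjusted p = 0.0352).

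Between the lines few of the 10 genes were called. In untreated cells none was called, at 0 higher and 0 lower against 1.08% and 1.84% of all genes tested by edgeR. At an unadjusted p under 0.05 there was 1, NFKBIE, which was lower in shATF4 cells (log2 -0.34, 95% interval -0.58 to -0.10, adjusted p = 0.134). At 24 h of 5-FU 2 of the 10 were higher in shATF4 cells and 0 lower, against 10.5% and 9.89% of all genes, a share near the background. The even split over all genes depends on the scaling, since 51.5% of the called genes were higher with TMM factors and 30.6% with library totals. At 48 h 1 was higher and 0 lower, against 3.92% and 5.53%. The 3 calls were of NFKBIB at 24 h and of NFKBIA at both times, and nothing about the inhibitor genes as a class is read from them. NFKBIB at 24 h was 0.35 ± 0.08 higher on the log2 scale (adjusted p = 0.00618, and 0.0503 without scramble 24 h replicate 3). NFKBIA was 0.22 ± 0.08 higher at 24 h (adjusted p = 0.0458) and 0.34 ± 0.09 higher at 48 h (adjusted p = 0.0252). Without shATF4 24 h replicate 3, one of the libraries that stood apart, RELA was called higher at 24 h (0.26, adjusted p = 0.00714) and lower at 48 h (-0.23, adjusted p = 0.0372), and NFKB1 was called higher at 48 h (0.25, adjusted p = 0.0468).

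The NFKBIA calls between the lines were fragile. That at 24 h was lost when any 1 of 12 of the 16 libraries was left out (adjusted p 0.0545 to 0.184). It held without scramble untreated replicate 2 or 3, shATF4 untreated replicate 1 or shATF4 24 h replicate 1. That at 48 h was lost without any 1 of the 4 libraries of that time (adjusted p 0.0825 to 0.191). Settings other than left-out libraries ended the 24 h call too: DESeq2 size factors (adjusted p = 0.0628), upper-quartile scaling (0.0601), library totals (0.162), no filter on low counts (0.206), DESeq2's Wald test (0.0694) and a fit of only the groups compared (0.103). No filter also ended that at 48 h (0.0958). With library totals NFKBIE was called lower in shATF4 cells at 24 h (log2 -0.35, adjusted p = 0.0213). In the authors' deposited table NFKBIA had an adjusted p of 0.189 at 24 h and 0.0632 at 48 h for this comparison. The 2 subunit genes that rose most under 5-FU did not pass the test between the lines at any time: NFKB2 at 48 h was 0.21 higher (95% interval -0.02 to 0.44, adjusted p = 0.277) and RELB 0.39 higher (0.06 to 0.72, adjusted p = 0.138). The lines carry 1 hairpin each, so the effect of ATF4 loss and any other difference between the lines cannot be told apart.

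**Figure D4:**
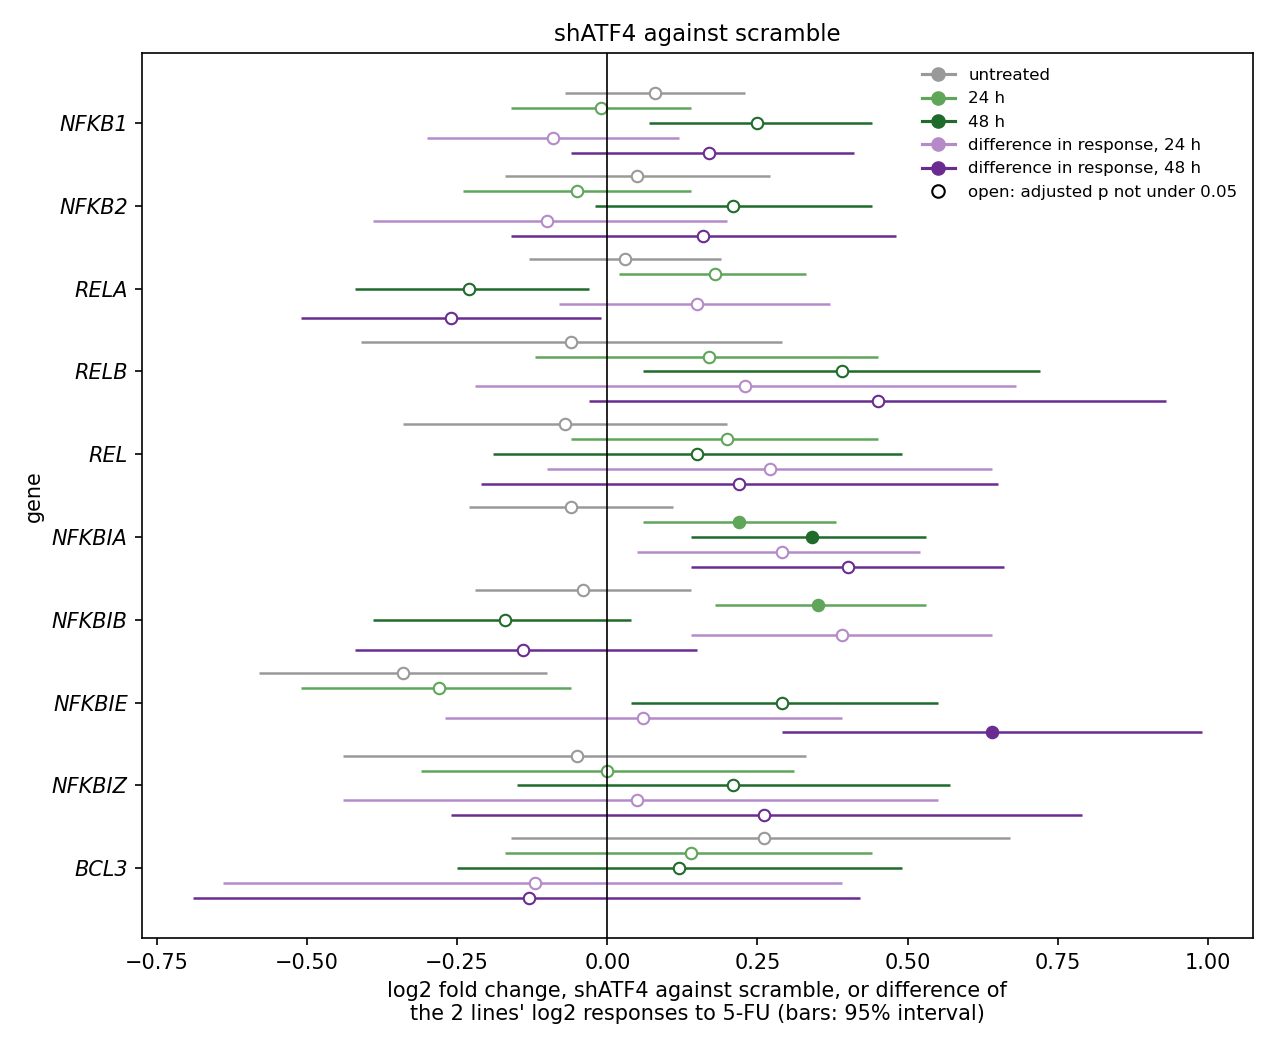
Log2 difference between shATF4 and scramble cells for each of the 10 genes, with 95% intervals from edgeR's fit, in untreated cells, at 24 h and at 48 h of 5-FU, beside the difference between the lines' responses to 5-FU at 24 h and 48 h; a line marks 0 and filled points have an adjusted p under 0.05. The differences between the lines run from -0.34 to 0.39, and the adjusted p is under 0.05 for NFKBIB and NFKBIA at 24 h and for NFKBIA at 48 h.

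Whether the response to 5-FU itself differed between the lines was tested with an interaction term. At 24 h 0 of the 10 genes passed it in edgeR, where 0.947% of all genes were higher and 1.18% lower. At an unadjusted p under 0.05 there were 2, NFKBIA (0.29, 95% interval 0.05 to 0.52, adjusted p = 0.169) and NFKBIB (0.39, 0.14 to 0.64, adjusted p = 0.0907). NFKBIB passed without scramble untreated replicate 3 (adjusted p = 0.048) or shATF4 24 h replicate 1 (adjusted p = 0.0224). At 48 h 1 passed, against 1.3% higher and 1.44% lower: the rise of NFKBIE was larger in shATF4 cells by 0.64 ± 0.17 on the log2 scale (95% interval 0.29 to 0.99, adjusted p = 0.0445). That call was lost when any 1 of 13 of the 16 libraries was left out (adjusted p 0.0516 to 0.232) and held without shATF4 24 h replicate 1 or 3 or shATF4 48 h replicate 1. NFKBIA at 48 h had an interaction of 0.40 ± 0.12 (0.14 to 0.66, adjusted p = 0.0899). Without both libraries that stood apart, NFKBIE, NFKBIA (0.42, adjusted p = 0.042) and RELA (-0.31, adjusted p = 0.0311) passed at 48 h.

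Genes that act before NF-κB in the pathway were called in both directions. The counts of each list below stand against 21.8% of all genes tested that rose and 22.2% that fell in scramble cells at 24 h, 30.6% and 30% at 48 h, and in shATF4 cells 23.2% and 21.2% at 24 h and 29.6% and 28.7% at 48 h. Of 13 genes of the IκB kinase (IKK) complex and its upstream kinases, 3 rose and 3 fell in scramble cells at 24 h, 3 and 5 at 48 h, and 3 and 5, then 5 and 6, in shATF4 cells. In scramble cells these shares are near the background. IKBKB, the catalytic subunit IKKβ of the canonical kinase, fell from 43.5, 48.1 and 39.9 CPM in untreated scramble cells to 16.9, 18.4 and 18.5 CPM at 24 h and 16.9 and 14.7 CPM at 48 h (log2 -1.29, adjusted p = 1.35e-09, and -1.47, adjusted p = 4.24e-10). In shATF4 cells IKBKB fell from 45.6, 44.0 and 39.2 CPM to 16.2, 14.5 and 14.8 CPM and then lay at 23.2 and 21.1 CPM (log2 -1.50, adjusted p = 2.4e-10, and -0.96, adjusted p = 1.65e-07). At 48 h IKBKB was 0.49 higher in shATF4 than in scramble cells (adjusted p = 0.0128), a call that was lost without scramble 48 h replicate 2 (0.181) or shATF4 48 h replicate 1 (0.116).

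Other kinase genes of the list differed one from another. MAP3K14, the kinase NIK that sets off processing of the NFKB2 precursor, was at 13.6, 15.7 and 12.9 CPM in untreated scramble cells, 12.3, 15.3 and 13.6 CPM at 24 h and 20.6 and 21.4 CPM at 48 h. Its change was not called at 24 h in either line (log2 -0.04 and 0.16) and was 0.58 in scramble (adjusted p = 0.000175) and 0.93 in shATF4 cells (adjusted p = 6.06e-07) at 48 h. CHUK, the IKKα subunit, was called in 1 comparison, shATF4 at 48 h (log2 -0.34, adjusted p = 0.00319), which library totals ended (-0.02, adjusted p = 0.882). Without scramble untreated replicate 2 CHUK was called lower in scramble cells at 48 h too (-0.23, adjusted p = 0.0392). IKBKG, the scaffold NEMO, was called in scramble cells at 24 h (log2 0.44, adjusted p = 0.0345), and leaving out any 1 of 5 libraries ended that call: scramble untreated replicate 1 or 3 or any of the 3 scramble 24 h libraries (adjusted p 0.0531 to 0.154). IKBKG has a near-identical partial copy in the genome, so its counts are uncertain. MAP3K8, the kinase TPL2 held by p105, rose at log2 1.05 and 1.51 in scramble and 1.13 and 1.70 in shATF4 cells (adjusted p from 4.08e-05 down to 5.19e-08).

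Of 11 receptor adaptors and ubiquitin ligases of the TRAF, cIAP and linear ubiquitin group, 3 rose and 2 fell in scramble cells at 24 h, 4 and 1 at 48 h, and 2 and 3, then 5 and 2, in shATF4 cells. The counts at 24 h are near the background. BIRC3, the gene of cIAP2 and a known NF-κB target, rose by log2 0.95 and 1.66 in scramble and 1.26 and 1.93 in shATF4 cells (adjusted p = 0.000141, 9.64e-08, 5.42e-06 and 1.26e-08). TRAF1, also a known target, rose by 0.92, 1.12, 1.37 and 1.88 in the same order (adjusted p = 0.000164, 1.95e-05, 6.78e-06 and 6.83e-08). TRAF1 was lower in untreated shATF4 than in untreated scramble cells (log2 -0.82, adjusted p = 0.0282). That call was lost without scramble untreated replicate 1 (0.0756) or 2 (0.0992) or shATF4 untreated replicate 1 (0.144) or 2 (0.0921). The 8 genes of the ligase that marks phosphorylated IκB for degradation counted 0 higher and 5 lower in scramble cells at 24 h, 1 and 4 at 48 h, 0 and 3 and then 1 and 5 in shATF4 cells. Their median log2 change was -0.21 and -0.24 in scramble and -0.12 and -0.3 in shATF4 cells, where that of all genes tested was -0.01 and 0.03, and 0.03 and 0.03. UBE2D3, a ubiquitin-conjugating enzyme, fell by 0.52 and 0.82 on the log2 scale in scramble cells and by 0.49 and 0.81 in shATF4 cells (adjusted p = 9.93e-06, 5.54e-08, 1.99e-05 and 6.56e-08). With library totals CUL1 and SKP1 in scramble cells and FBXW11 and UBE2D2 in shATF4 cells lost their calls at 24 h.

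Among the 11 negative regulators, 5 rose and 1 fell in scramble cells at 24 h, 6 and 2 at 48 h, and 6 and 2, then 5 and 1, in shATF4 cells. Their median log2 change was 0.07 and 0.32 in scramble and 0.38 and 0 in shATF4 cells. TNFAIP3, the gene of the deubiquitinase A20 and a known NF-κB target, rose by log2 1.02 and 0.90 in scramble and 1.10 and 1.15 in shATF4 cells (adjusted p = 3.2e-08, 2.36e-07, 9.92e-09 and 5.55e-09). CYLD, a deubiquitinase that removes linear and K63-linked chains, rose by 0.75 and 1.46 in scramble cells and by 1.34 at 48 h in shATF4 cells (adjusted p = 1.47e-07, 5.85e-12 and 3.31e-11). Between the lines, 3 of the 11 were higher and 0 lower in shATF4 cells at 24 h (10.5% and 9.89% of all genes). At 48 h it was 1 and 1 (3.92% and 5.53%). TNFAIP3 was higher at 24 h (log2 0.28, adjusted p = 0.0274) and 48 h (0.45, adjusted p = 0.00941). These calls were lost without any 1 of 5 and any 1 of 3 libraries. PDLIM2 was lower at 48 h (-0.67, adjusted p = 0.00226), lost without either of 2 libraries. The 3 further genes listed beside the IκB genes, NFKBID, NFKBIL1 and ANKRD42, rose in all 4 comparisons. Of these, only NFKBID is taken here as an IκB gene, so the list does not stand for the family. NFKBID, another nuclear IκB, rose by 0.60 and 1.24 in scramble and 0.97 and 1.10 in shATF4 cells (adjusted p = 0.0119, 1.17e-05, 0.000155 and 4.74e-05). At 24 h in scramble cells the NFKBID call was lost without scramble untreated replicate 3 (0.0756) or scramble 24 h replicate 3 (0.0648). NFKBIL1 at 24 h in scramble cells (0.34, adjusted p = 0.0424) was lost without any 1 of 4 libraries, scramble untreated replicate 1 or 2 or 24 h replicate 1 or 2, at adjusted p of 0.0921 to 0.157, and in shATF4 cells (0.42, adjusted p = 0.0131) without shATF4 untreated replicate 1 (0.087). Of 11 coactivators, corepressors and kinases of RELA, 1 rose and 5 fell in scramble cells at 24 h, 1 and 8 at 48 h, 2 and 2 and then 2 and 7 in shATF4 cells, where the counts at 24 h are near the background. KAT2B, the acetyltransferase PCAF, went against most of the list and rose in all 4 (log2 1.22, 1.54, 1.02 and 1.26, adjusted p = 1.22e-06, 4.5e-08, 1.94e-05 and 1.38e-06). The largest fall at 48 h was that of NKRF, at log2 -0.91 in scramble (adjusted p = 1.49e-08) and -0.65 in shATF4 cells (adjusted p = 1.34e-06). HDAC3, a deacetylase of RELA, fell by 0.79 in scramble cells at 48 h (adjusted p = 5.51e-09).

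Textbook targets of NF-κB rose almost throughout. Of 20 listed, 17 were tested; IL6 and PTGS2 did not pass the filter on low counts and SOD2 stands on 2 rows of the table. In scramble cells 16 rose at 24 h and 17 at 48 h, and in shATF4 cells also 16 and 17, with 0 lower, against 21.8%, 30.6%, 23.2% and 29.6% of all genes that rose. The median log2 change was 2.17 and 2.72 in scramble and 2.1 and 2.92 in shATF4 cells. The gene that was not called at 24 h was GADD45B in both lines (log2 0.24 and 0.30). ICAM1, an adhesion molecule for leukocytes, was at 2.42, 2.54 and 1.68 CPM in untreated scramble cells and at 26.9 and 29.9 CPM at 48 h (log2 3.68, adjusted p = 7.86e-13). CXCL8, the chemokine interleukin 8, was at 10.7, 13.1 and 9.59 CPM in untreated shATF4 cells and at 84.2, 84.0 and 109.7 CPM at 24 h (log2 3.06, adjusted p = 1.53e-11). Between the lines, 0 of the 17 were higher and 1 lower in untreated shATF4 cells (1.08% and 1.84% of all genes), 3 and 1 at 24 h (10.5% and 9.89%) and 4 and 2 at 48 h (3.92% and 5.53%). CCL20, a chemokine for cells with the receptor CCR6, was higher in shATF4 cells at 24 h (log2 0.64, adjusted p = 0.000662) and 48 h (0.91, adjusted p = 0.000158). The chemokine genes CXCL3 at 24 h (0.84, adjusted p = 0.000436) and CXCL2 at 48 h (1.32, adjusted p = 0.00257) were higher too. CD83 was higher at 48 h (0.75, adjusted p = 0.00342), a call lost without scramble 48 h replicate 2 (0.0516). GADD45B, a stress-response gene, was lower in shATF4 cells untreated (-0.69, adjusted p = 0.00709) and at 24 h (-0.63, adjusted p = 0.00258). These genes were listed with results of these data known, so their direction is no independent evidence.

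Among 12348 genes compared, those whose log2 CPM followed NFKB2 most closely over the 16 libraries were CACNB3 (Pearson r = 0.991), WLS (0.988) and ICAM1 (0.986). Those closest to NFKBIA were NBL1 (0.95), GUSB (0.95) and SMYD4 (0.947). The libraries share 6 groups, so these values mostly describe group means and have no p. Of the 8 genes with promoter windows, 7 held a κB match, so matches cannot be set against the direction of change. NFKB2, NFKBIZ, BCL3 and NFKBIA rose, NFKBIB rose at 24 h, and NFKB1 and REL did not rise, all with a match. RELA, the gene without a match, was called higher only in scramble cells at 48 h. A link between matches and levels was not tested.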

How the data were processed

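Poly(A) RNA of 16 libraries was sequenced, and the authors deposited raw counts per gene, made with featureCounts 1.5.0-p3 on GRCh38 per the submitters' processing notes. The deposited table also holds the authors' log2 fold changes and adjusted p-values, quoted where named; its 16 FPKM columns and 14 group means were not used. The gene length (a score in bases) was deposited by the authors. Groups came from titles and genotype labels; for the 48 h libraries the treatment tag reads 24 h, while title and design text give 48 h. The labels do not say that replicates were separate cultures, so p-values measure the spread between these samples only.

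Counts were filtered by group (filterByExpr, 17309 of 58735 genes, 99.9% of counts), scaled by TMM and fitted in edgeR 4.0.16 (R 4.3.3) with a quasi-likelihood model of 6 group means, with 10 residual degrees of freedom. All 11 contrasts were adjusted by Benjamini-Hochberg over all genes tested, with a threshold of 0.05. "Rose", "fell" and "called" mean past that threshold. Standard errors are the log2 change over the root of F. Total counts were 14571611 to 17824188, and PCR reads without molecular identifiers are not independent molecules. The fit was tested on simulated data. No 2 replicates were identical. Alternatives were other scalings, no filter, DESeq2 1.42.0, a replicate block, only the groups compared, and leaving libraries out.

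Members and lists were chosen with earlier results of these data known. Named were the 10 genes, ATF4, from each pathway list up to 3 called genes with the largest change per comparison plus 7 set genes (CHUK, IKBKB, IKBKG, MAP3K14, TNFAIP3, BIRC3, TRAF1), and the 3 genes most correlated with NFKBIA and NFKB2. BCL2L1 falls outside that rule and was named after its value was seen.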

Additional observations from a re-analysis of the deposited data

Results flagged for a closer look

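Among the 10 genes and all genes of the pathway lists, 4 passed the interaction term of edgeR's quasi-likelihood fit, with p adjusted by Benjamini-Hochberg. Of all genes tested, 0.947% were higher and 1.18% lower by that term at 24 h, and 1.3% and 1.44% at 48 h. Nothing about these genes as a group is read from the count. At 24 h the value was -0.51 on the log2 scale for MAP3K7, the kinase TAK1 (adjusted p = 0.0237), lost without any 1 of 6 libraries (0.0506 to 0.0708). OTUD7B, a deubiquitinase, had 0.43 (adjusted p = 0.0457), lost without any 1 of 11 libraries (0.058 to 0.153). At 48 h NFKBIE had 0.64 (adjusted p = 0.0445), lost without any 1 of 13 libraries, and BCL2L1, the gene of the survival protein BCL-XL and a known NF-κB target, had -0.51 (adjusted p = 0.00384), called without each of the 16 libraries in turn.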

How the results depend on the processing

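The genes called per comparison, of 10, stayed within 1.5 times for the 4 comparisons of 5-FU with untreated cells and for 48 h against 24 h in shATF4 cells under all alternatives, and between the untreated lines it was 0 in all of them. For shATF4 against scramble at 24 h the count of 2 became 1 with DESeq2 size factors, upper-quartile scaling, no filter, DESeq2's Wald test or only the groups compared, and 0 to 2 leaving out 1 library. At 48 h the count of 1 became 0 with no filter and 3 without both libraries that stood apart or with only the groups compared, and 0 to 3 leaving out 1 library, shATF4 24 h replicate 3 giving 3. For 48 h against 24 h in scramble cells the count of 5 became 3 with no filter and 1 to 6 leaving out 1 library. The interaction count was 0 at 24 h and 0 to 1 leaving out 1 library. At 48 h the count of 1 became 0 with upper-quartile scaling, library totals, no filter or only the groups compared, 3 without both libraries that stood apart, and 0 to 1 leaving out 1 library. The cause was not tested.

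Of 880 values of the 10 genes under the alternatives other than leaving out 1 library, 802 kept direction and call, 26 lost and 28 gained a call and 24 changed sign; of 1760 with 1 library left out, 1666 kept both, 57 lost, 11 gained and 26 changed sign. Apart from 2, the sign changes were of genes called in neither fit. With library totals NFKB1 turned to 0.10 and RELA to 0.31 (shATF4, 48 h), NFKB1 to 0.06, RELA to 0.16, CHUK to 0.11 and MAP3K14 to 0.17 (scramble, 24 h), CHUK to 0.19 (scramble, 48 h), NFKBIA to 0.09 and NFKBIB to 0.03 (48 h against 24 h, scramble), RELA to 0.11 (the same, shATF4), and NFKBIE to -0.05 and NFKBIZ to -0.06 (interaction, 24 h). With upper-quartile scaling RELA turned to 0.02 and MAP3K14 to 0.03 (scramble, 24 h), RELA to 0.11 (shATF4, 48 h) and NFKBIA to 0.02 (48 h against 24 h, scramble). RELA in shATF4 cells at 48 h was 0.01 with DESeq2 size factors, DESeq2 and only the groups compared. Without both libraries that stood apart NFKBIB turned to 0.02 (lines, untreated), NFKB1 to 0.02 (lines, 24 h), REL to -0.04 and MAP3K14 to 0.05 (scramble, 24 h), BCL3 to -0.14 (48 h against 24 h, shATF4), and in the interactions NFKBIZ to -0.03 and BCL3 to 0.19 (24 h) and BCL3 to 0.01 (48 h).

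Ranges that crossed 0 leaving out 1 library were, between the untreated lines, NFKBIB -0.11 to 0.02, NFKB2 -0.05 to 0.16, RELA -0.02 to 0.08, RELB -0.16 to 0.09 and NFKBIZ -0.21 to 0.09; between the lines, NFKB1 -0.07 to 0.02 (24 h), REL -0.03 to 0.33 and BCL3 -0.03 to 0.27 (48 h); against untreated cells, REL -0.04 to 0.07 and MAP3K14 -0.12 to 0.05 (scramble, 24 h), IKBKG -0.01 to 0.30 (shATF4, 24 h) and RELA -0.06 to 0.01 (shATF4, 48 h); from 24 h to 48 h, BCL3 -0.04 to 0.09 (scramble) and -0.14 to 0.18 (shATF4); and in the interactions, BCL3 -0.23 to 0.05, NFKBIE -0.02 to 0.12 and NFKBIZ -0.09 to 0.21 (24 h) and BCL3 -0.28 to 0.03 (48 h).

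Replicate numbers were not taken as a pairing. Deviations of same-numbered libraries from their group means correlated at -0.475 to 0.508 (median 0.169), over 0.1 in 19 of 36 pairs. For different numbers the range was -0.513 to 0.502 (median -0.061), over 0.1 in 17 of 70. Deviations cancel out within a group of 2 or 3 libraries, which pulls the correlations of different numbers down. These values therefore cannot decide whether the numbers mark a pairing. With a replicate block 7, 9, 9 and 8 of the 10 genes were called for 5-FU at 24 h and 48 h in scramble and then shATF4 cells, and BCL3 from 24 h to 48 h turned to -0.03 in both lines; the block added NFKBIE between the lines at 24 h (-0.28, adjusted p = 0.0454) and REL in shATF4 cells at 24 h (0.29, adjusted p = 0.0478). Among all genes, 506 calls between the untreated lines became 891 without both libraries that stood apart, and 277 to 774 leaving out 1 library (over 1.5 times for scramble untreated replicate 1, each shATF4 untreated library and shATF4 24 h replicate 3). The 3533 at 24 h became 2189 with only the groups compared and 2067 to 3885 leaving out 1 library (scramble 24 h replicates 1 and 3), and the 1636 at 48 h became 3021 without both libraries that stood apart, 2748 with only the groups compared and 600 to 2463 leaving out 1 library (each 48 h library and shATF4 24 h replicate 3). The 6621 for 48 h against 24 h in scramble cells ran from 4363 to 7485 (scramble 48 h replicate 2). The 369 interaction calls at 24 h became 559 with library totals, 798 with no filter, 699 with DESeq2, 644 with the block, 647 without both libraries that stood apart and 173 with only the groups compared, and the 475 at 48 h became 1204 without both; leaving out 1 library they ran from 65 to 1188 and from 136 to 991. The share of higher among called genes moved from 49.5% to 60.1% with upper-quartile scaling and 78.4% with library totals (scramble, 24 h), 50.5% to 61.4% and 76.5% (scramble, 48 h), 52.3% to 57.5% and 66.1% (shATF4, 24 h), 50.7% to 61.2% and 76.3% (shATF4, 48 h), 49.1% to 60.2% and 71.1% (48 h against 24 h, scramble), 49.1% to 58.6% and 72.9% (the same, shATF4) and 44.4% to 30.7% and 12% (interaction, 24 h). With library totals it also moved from 37% to 50.1% (lines, untreated), 51.5% to 30.6% (lines, 24 h) and 47.4% to 32.1% (interaction, 48 h). With 2 libraries per line at 48 h and 3 elsewhere, a difference that missed the threshold is not shown to be absent.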
